A study of Homo sapiens with 16 samples.

Results

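The 32 genes described here encode enzymes of cholesterol synthesis, enzymes of fatty acid synthesis, and the sterol regulatory element binding proteins (SREBPs) with the factors that control them. They were chosen by symbol for their place in these pathways, with earlier results of these data known. All 32 were found among the 58051 genes of the count table. RNA-seq was done on LNCaP, a human prostate cancer cell line that responds to androgen, in 2 experiments with 4 libraries in each of 4 groups. In the knockdown experiment the cells received Allstar control siRNA (siCtrl) or siRNA against XBP1 (siXBP1), and 2 days passed before stress was applied. In the inhibitor experiment the cells received DMSO (Vehicle) or MKC8866, an inhibitor of the RNase of the ER stress sensor IRE1, at 10 µM for 24 h. All 16 libraries share a further treatment, 30 nM thapsigargin for 3 h, which empties the calcium store of the endoplasmic reticulum (ER) and causes ER stress. The controls are therefore stressed cells with an intact IRE1 pathway, and unstressed cells were not analysed here. The siRNA knockdown is transient, and the 2 experiments differ in their controls and in the length of pretreatment.

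Cholesterol and fatty acids are both built from acetyl-CoA in the cytosol and the ER membrane. The genes of both pathways are switched on by the SREBPs, which lie as precursors in the ER membrane bound to the escort protein SCAP. When sterols are low, SCAP carries the precursors to the Golgi, where proteases free the active transcription factors, and when sterols are high, the INSIG proteins hold SCAP in the ER. IRE1, a sensor in the same membrane, splices XBP1 mRNA under ER stress so that it encodes the active factor XBP1s. In the liver XBP1 is known to promote expression of lipogenic genes, and in prostate cancer cells lipid synthesis is under androgen control.

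XBP1 itself was at 382, 426, 365 and 362 CPM in the siCtrl libraries and at 51.5, 54.2, 54.4 and 53.4 CPM in the siXBP1 libraries, where CPM is the fragments of a gene in each 1000000 counted in its library, after normalization between libraries. The 2 groups were far apart, and XBP1 on knockdown fell by 86.1% (edgeR adjusted p = 2.92e-20). It was at 486, 536, 479 and 503 CPM with Vehicle and at 581, 614, 574 and 539.7 CPM with MKC8866, a small rise of the whole mRNA (log2 fold change 0.20 ± 0.04 (SE), edgeR adjusted p = 0.00493). The count does not separate the spliced from the unspliced form. Of the known XBP1s targets DNAJB9, SERP1 and EDEM1, all fell in both comparisons, DNAJB9 with a log2 fold change of -2.31 on knockdown and -1.87 with MKC8866. Between 28713607 and 34509488 fragments were counted per library, and the mitochondrial share of the counts ran from 3.62% to 5.04% except in siCtrl replicate 4, at 2.76%. Of 12 markers of other cell types, PTPRC and CD3E (immune) and PECAM1 (endothelial) had a mean under 0.1 CPM in every group, while VWF (endothelial) had a mean of 8.15 to 9.33 CPM and COL1A1 (fibroblast) of 27.5 to 33.0 CPM. The 7 prostate luminal markers together came to between 2984 and 4472 CPM.

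The set of RefSeq promoters used (GRCh38.p14) held 28 of the 32 genes, all but FDFT1, SQLE, ACAT2 and FASN. These promoters were searched on both strands in the 250 bases before the start. Only 1 start was used per gene, and other starts were not searched. For FADS2 and ACLY this start lies well inside the counted gene, so it need not be the main one. The sterol regulatory element was searched as TCACNCCAC, the E-box as CACGTG, the core of the XBP1s element as TGACGTG, the NF-Y box as CCAAT and the Sp1 box as GGGCGG. A set of 6 promoters is shown so that the letters of genes that moved in different directions on knockdown, EBP and ACLY (lower) and SC5D and HSD17B7 (higher), can be read beside those of the pathway's own regulators SREBF2 and INSIG1. Capitals mark the sterol regulatory element, the E-box and the CCAAT box on either strand, and only the 250 bases before the start are printed, 5′ to 3′ on the gene's strand.
EBP promoter, chrX:48521558-48521807, plus strand: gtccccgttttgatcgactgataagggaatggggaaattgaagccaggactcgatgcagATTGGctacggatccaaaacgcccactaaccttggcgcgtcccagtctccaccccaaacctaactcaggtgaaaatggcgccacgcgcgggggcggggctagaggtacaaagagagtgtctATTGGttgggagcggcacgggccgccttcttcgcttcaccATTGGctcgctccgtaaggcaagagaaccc
ACLY promoter, chr17:41919023-41919272, minus strand: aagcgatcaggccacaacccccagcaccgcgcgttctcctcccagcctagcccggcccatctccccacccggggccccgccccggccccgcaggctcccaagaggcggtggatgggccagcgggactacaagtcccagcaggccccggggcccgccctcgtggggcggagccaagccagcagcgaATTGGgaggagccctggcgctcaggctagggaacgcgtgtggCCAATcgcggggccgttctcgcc
SC5D promoter, chr11:121292521-121292770, plus strand: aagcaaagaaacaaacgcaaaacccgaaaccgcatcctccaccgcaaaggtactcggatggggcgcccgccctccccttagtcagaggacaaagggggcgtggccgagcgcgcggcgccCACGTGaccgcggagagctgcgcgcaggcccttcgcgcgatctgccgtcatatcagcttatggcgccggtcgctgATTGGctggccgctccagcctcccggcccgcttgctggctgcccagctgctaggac
HSD17B7 promoter, chr1:162790452-162790701, plus strand: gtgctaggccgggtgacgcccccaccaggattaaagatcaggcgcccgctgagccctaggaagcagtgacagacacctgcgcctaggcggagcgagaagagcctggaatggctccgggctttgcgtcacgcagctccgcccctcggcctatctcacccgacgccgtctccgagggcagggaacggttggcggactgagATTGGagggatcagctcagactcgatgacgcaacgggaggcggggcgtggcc
SREBF2 promoter, chr22:41832855-41833104, plus strand: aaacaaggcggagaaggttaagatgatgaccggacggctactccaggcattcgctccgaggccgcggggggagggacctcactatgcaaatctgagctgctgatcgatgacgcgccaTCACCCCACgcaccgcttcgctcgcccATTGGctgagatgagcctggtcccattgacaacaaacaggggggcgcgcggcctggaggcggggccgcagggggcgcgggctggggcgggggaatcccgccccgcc
INSIG1 promoter, chr7:155297628-155297877, plus strand: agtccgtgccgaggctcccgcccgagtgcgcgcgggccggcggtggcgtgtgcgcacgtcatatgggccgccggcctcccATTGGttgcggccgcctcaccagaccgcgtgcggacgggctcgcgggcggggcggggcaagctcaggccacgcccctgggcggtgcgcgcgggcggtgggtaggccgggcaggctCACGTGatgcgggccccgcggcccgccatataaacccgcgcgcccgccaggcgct

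The CCAAT box, which is often found beside sterol regulatory elements, was in 18 of the 28 promoters (64.3%) and in 33% of all 27305 promoters of the same length. The 27305 were not matched to the 28 for expression or base composition, so the shares of each motif are not like for like. The CCAAT box occurs 3 times in the printed EBP promoter, 2 times in that of ACLY and 1 time in each of the others. Across the 28, its number ran from 0, as in FADS2 (lower on knockdown) and SCAP (higher), to 5 in NSDHL (lower) and MVK (not called). A link between the number of boxes and the response was not tested. Among the 28, SREBF2 alone held TCACNCCAC (0.875% of all promoters), starting 133 bases before its start site. The E-box was in 3 of the 28 (10.7%), SCAP, INSIG1 and SC5D, and in 6.49% of all promoters. INSIG1 also held TGACGTG, found in 1.71% of all promoters, and GGGCGG was in 26 of the 28 (92.9%) and in 42.3% of all. No capitalised match overlapped another in the 6 promoters printed. These are matches of letters, and many functional sterol elements differ from the string searched.

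After XBP1 knockdown 17 of the 32 genes were lower, among them FASN, ACLY and ACACA on the route from citrate to palmitate and 7 of the 8 fatty acid enzymes in all. By the edgeR quasi-likelihood test at an adjusted p under 0.05, 17 genes fell, 5 rose and 10 were not called. Across all 21021 genes tested in this comparison, 18.2% were called lower and 16.5% higher. The median log2 fold change of the 32 genes was -0.14, beside 0.005 for all genes tested. Summed over the 32 genes, the level was 11786 ± 453 CPM (SD, n = 4) in siCtrl and 10307 ± 152 CPM in siXBP1 cells, with no overlap between libraries. The changes were small, and FASN, which fell by 26.8%, had the largest of the 32. In bulk RNA a lower share of cells with a transcript and less transcript per cell cannot be told apart. All 32 genes passed the filter on low counts, the least counted of them, INSIG2, with at least 624 fragments in every library.

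**Figure D1:**
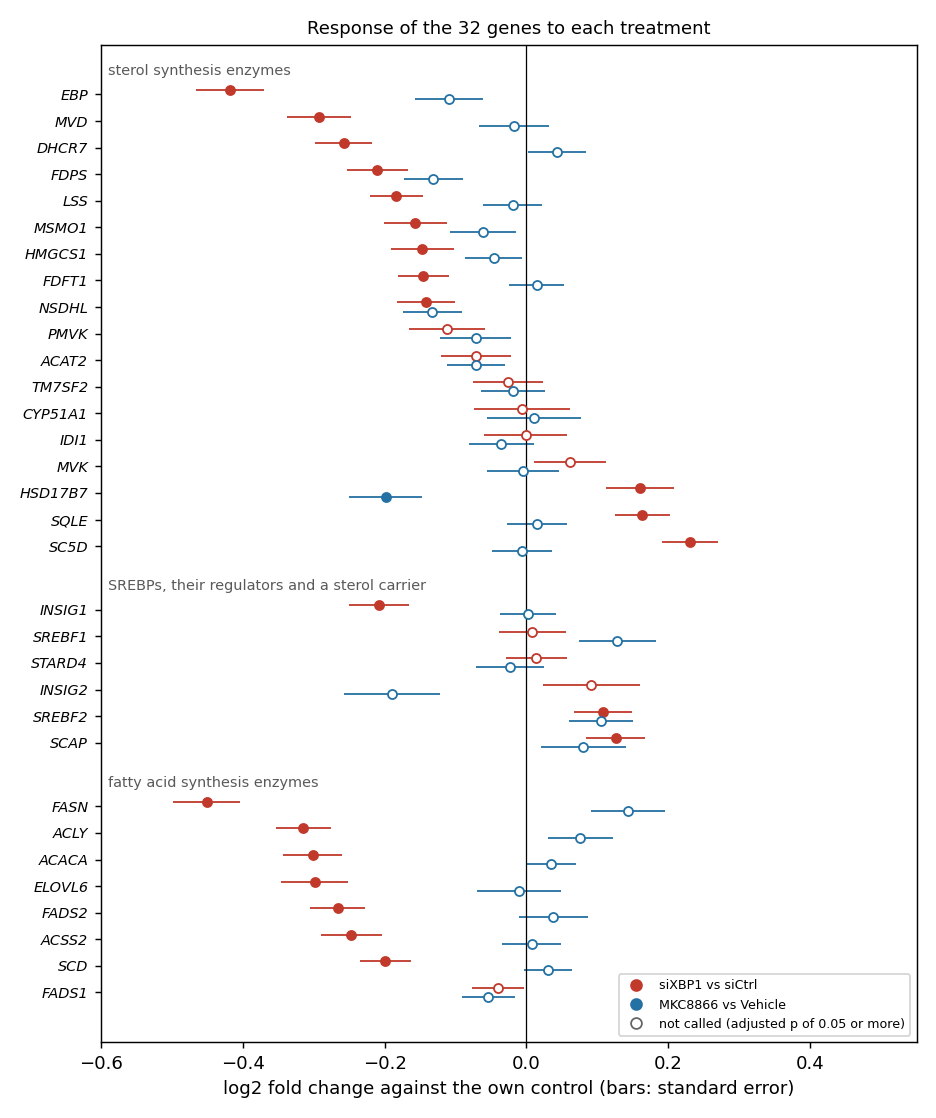
The log2 fold change of each of the 32 genes against its own control, with its standard error, for XBP1 knockdown (red) and MKC8866 (blue), grouped by role; filled points passed an adjusted p of 0.05. Of the 32 red points 22 are filled, 17 of them left of 0, and HSD17B7 has the 1 filled blue point.

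Of the 8 fatty acid synthesis enzymes, 7 fell on knockdown and none rose, also at an unadjusted p under 0.05 and by DESeq2. In each of these 7 genes all siXBP1 libraries were below all siCtrl libraries. Among all genes tested, 16.7% had their siXBP1 libraries entirely below and 15.6% entirely above the siCtrl libraries. The median log2 fold change of the 8 was -0.28. FASN (ENSG00000169710, chromosome 17, 82078333 to 82098332 in GRCh38, minus strand), the synthase that builds palmitate, was at 2124, 2605, 2287 and 2369 CPM in siCtrl and at 1812, 1669, 1708 and 1693 CPM in siXBP1 libraries. All siXBP1 values lay below the lowest control, siCtrl replicate 1, and the log2 fold change was -0.45 ± 0.05 (SE, edgeR adjusted p = 1.02e-07).

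ACLY (ENSG00000131473, chromosome 17, 41866908 to 41930542 in GRCh38, minus strand), which splits citrate to supply cytosolic acetyl-CoA, was at 731, 808, 779 and 795 CPM in siCtrl and 622, 613, 644 and 632 CPM in siXBP1 libraries. The groups were apart by more than the range of either, with a log2 fold change of -0.31 ± 0.04 (edgeR adjusted p = 8.6e-07). ACACA (ENSG00000278540, chromosome 17, 37084988 to 37406818 in GRCh38, minus strand), the carboxylase that makes malonyl-CoA for FASN, was at 737, 829.9, 765 and 827 CPM in siCtrl and 655, 617, 662 and 636 CPM in siXBP1 libraries. Here too siCtrl replicate 1 was the lowest control and lay above every knockdown library, and the log2 fold change was -0.30 ± 0.04 (edgeR adjusted p = 4.92e-06). ACLY, ACACA and FASN act one after the other on the way from citrate to palmitate, where ACLY fell by 19.6% and ACACA fell by 18.8%.

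**Figure D2:**
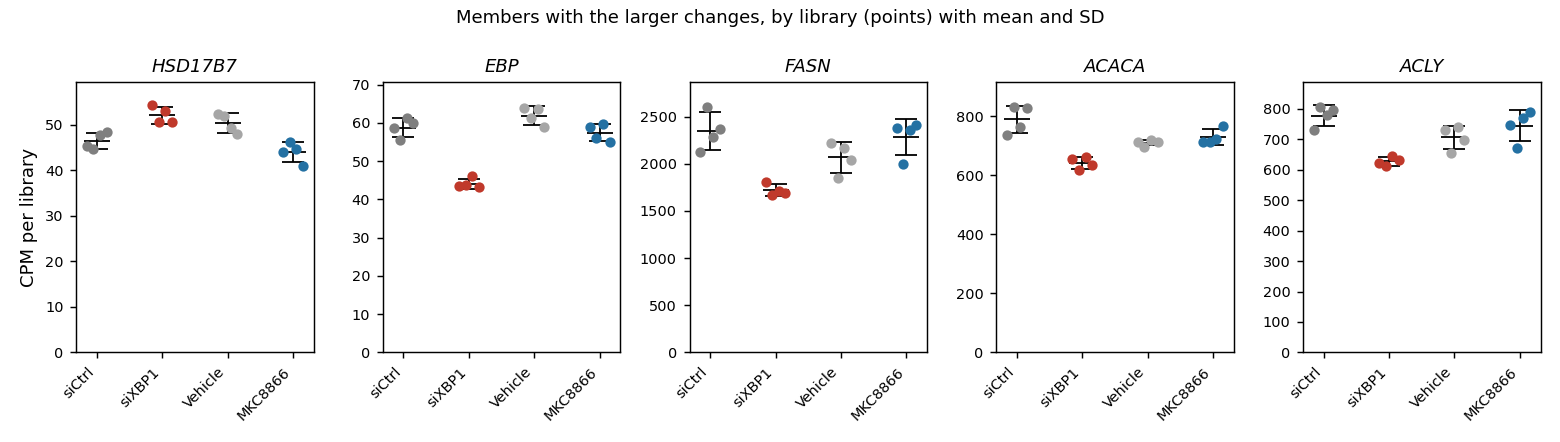
CPM in each library (points) with the mean and SD of 4 libraries (bars) for the 5 genes with the larger or opposite changes, in the 4 groups, on axes that start at 0. FASN, ACACA, ACLY and EBP are lower in every siXBP1 library than in every siCtrl library, and HSD17B7 is higher with siXBP1 and lower with MKC8866 than in each control.

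Enzymes that modify the fatty acid chain moved the same way, with 1 exception. ELOVL6, which elongates palmitate, went from 44.2 ± 1.31 CPM to 36.0 ± 0.990 CPM (SD, n = 4), with -0.30 ± 0.05 as the log2 fold change (edgeR adjusted p = 2.94e-05). SCD, the desaturase that makes oleate, went from 1508 ± 28.99 CPM to 1318 ± 29.4 CPM (log2 fold change -0.20 ± 0.04, edgeR adjusted p = 0.000132). FADS2 and FADS1 encode desaturases of polyunsaturated fatty acids, and in the annotation used FADS1 lies within the interval of FADS2 on chromosome 11, on the opposite strand. Of these, FADS2 went from 825 ± 30.2 CPM to 688 ± 25.1 CPM (log2 fold change -0.27 ± 0.04, edgeR adjusted p = 9.41e-06). FADS1 was at 218 ± 2.81 CPM and 213 ± 4.56 CPM and was not called, with a log2 fold change whose 95% confidence interval was -0.12 to 0.04. ACSS2, which makes acetyl-CoA from acetate, fell from 85.7 ± 2.01 CPM to 72.4 ± 2.84 CPM (log2 fold change -0.25 ± 0.04, edgeR adjusted p = 8.35e-05).

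Among the 18 enzymes of sterol synthesis the picture was mixed, with 9 lower, 3 higher and 6 not called on knockdown. Beside these counts, 18.2% of all genes tested were called lower and 16.5% higher. The median log2 fold change of the 18 was -0.13. Their summed level was 3467 ± 93.4 CPM in siCtrl and 3237 ± 73.7 CPM in siXBP1 cells (SD, n = 4), where that of the fatty acid enzymes was 6596 ± 335 and 5318 ± 129 CPM. EBP (ENSG00000147155, chromosome X, 48521158 to 48528716 in GRCh38, plus strand), the isomerase that shifts the double bond of the sterol ring, fell the most of the 18, and its promoter is the one printed first. It was at 58.6, 55.6, 61.2 and 59.9 CPM in siCtrl and 43.4, 43.8, 46.1 and 43.2 CPM in siXBP1 libraries. The groups did not overlap, and the log2 fold change was -0.42 ± 0.05 (edgeR adjusted p = 3.37e-07).

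Along the early, mevalonate part of the pathway, HMGCS1, which makes HMG-CoA, had a log2 fold change of -0.15 ± 0.04 on knockdown (edgeR adjusted p = 0.0115), from 510.0 ± 23.7 to 462 ± 24.1 CPM (SD, n = 4) with overlapping libraries. MVD, which decarboxylates mevalonate diphosphate, fell from 167 ± 9.77 to 137 ± 6.58 CPM (log2 fold change -0.29 ± 0.05, edgeR adjusted p = 2.06e-05). FDPS, the farnesyl diphosphate synthase, went from 122 ± 5.71 to 106 ± 3.64 CPM (log2 fold change -0.21 ± 0.04, edgeR adjusted p = 0.000539). Several genes of this stretch were not called. The thiolase gene ACAT2, which acts before HMGCS1, was at 97.9 ± 5.62 and 93.4 ± 4.98 CPM, with a 95% confidence interval of the log2 fold change of -0.17 to 0.03. For the mevalonate kinase MVK the values were 90.02 ± 5.37 and 94.2 ± 5.56 CPM (-0.04 to 0.17), and for the phosphomevalonate kinase PMVK they were 47.4 ± 1.20 and 44.0 ± 3.37 CPM (-0.22 to -0.00054). IDI1, the isomerase of isopentenyl diphosphate, was at 219 ± 16.9 and 219 ± 19.9 CPM (-0.12 to 0.12).

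In the squalene and lanosterol steps, FDFT1 (squalene synthase) fell from 622 ± 13.6 to 564 ± 6.92 CPM, a log2 fold change of -0.15 ± 0.04 (edgeR adjusted p = 0.00278). LSS, which closes the sterol rings to lanosterol, fell from 239 ± 7.85 to 211 ± 2.15 CPM (log2 fold change -0.18 ± 0.04, edgeR adjusted p = 0.000473). SQLE, the epoxidase between these enzymes, rose from 155 ± 6.37 to 174 ± 3.18 CPM (log2 fold change 0.16 ± 0.04, edgeR adjusted p = 0.00214). A gene that rose therefore lies between genes that fell in the same linear stretch, and its siXBP1 libraries were all above its siCtrl libraries.

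The enzymes that turn lanosterol into cholesterol also differed among themselves. CYP51A1, the lanosterol demethylase, was at 26.3 ± 2.59 and 26.3 ± 1.89 CPM and the sterol reductase gene TM7SF2 at 155 ± 12.5 and 152 ± 4.83 CPM, and neither was called. MSMO1, NSDHL and HSD17B7 encode the 3 enzymes that together remove methyl groups from the ring. MSMO1 fell from 260.0 ± 10.6 to 234 ± 12.8 CPM (log2 fold change -0.16 ± 0.04, edgeR adjusted p = 0.0075). NSDHL fell from 97.2 ± 3.70 to 88.4 ± 1.30 CPM (log2 fold change -0.14 ± 0.04, edgeR adjusted p = 0.00844). HSD17B7 (ENSG00000132196, chromosome 1, 162790702 to 162812817 in GRCh38, plus strand), in contrast, was at 45.4, 44.6, 47.7 and 48.3 CPM in siCtrl and at 54.2, 50.5, 53.1 and 50.5 CPM in siXBP1 libraries. Every knockdown library was above every control, though by a small margin, and the log2 fold change was 0.16 ± 0.05 (edgeR adjusted p = 0.0111).

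The last 2 steps of one branch moved apart. SC5D, a sterol desaturase, rose from 208 ± 6.91 to 245 ± 7.24 CPM with no overlap between the groups, the largest rise of the 32 genes (log2 fold change 0.23 ± 0.04, edgeR adjusted p = 6.62e-05). DHCR7, the reductase that yields cholesterol in the step after it, fell from 346 ± 17.8 to 290.3 ± 8.63 CPM (log2 fold change -0.26 ± 0.04, edgeR adjusted p = 2.36e-05). The heat map of single libraries shows these rises and falls next to each other.

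**Figure D3:**
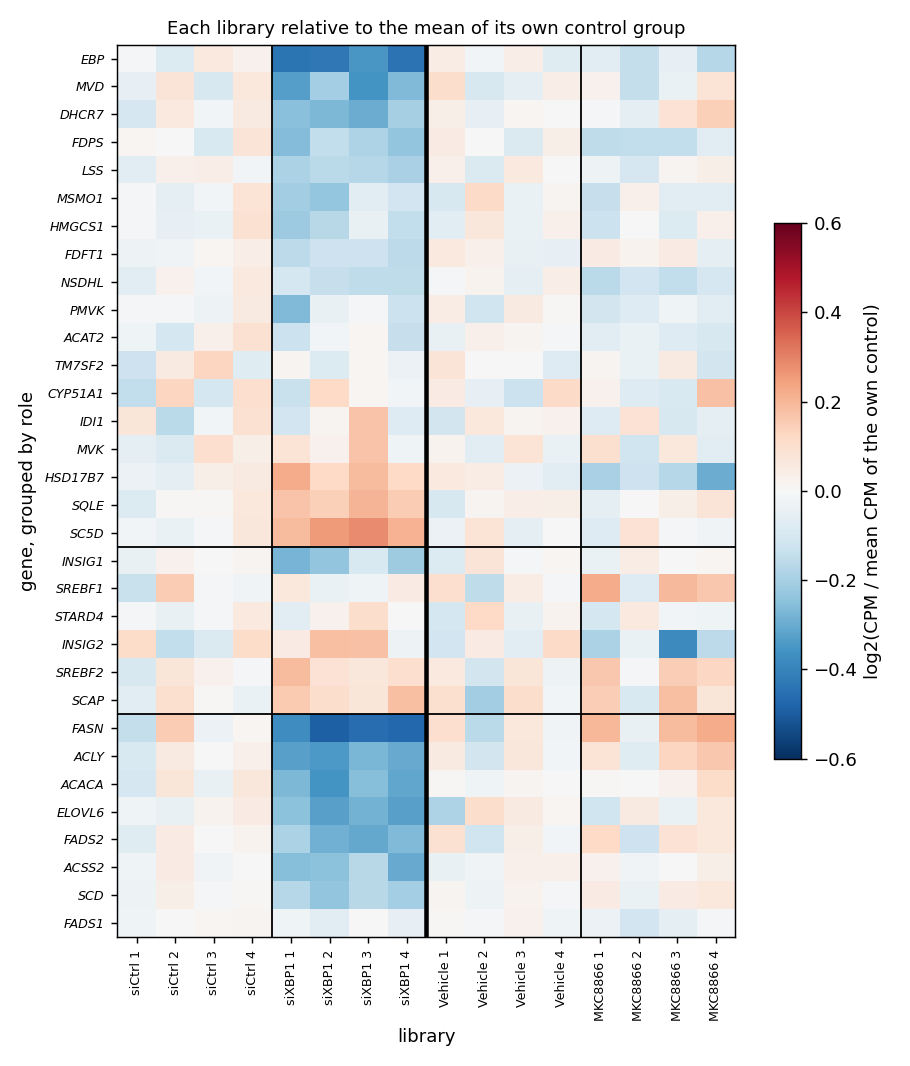
Colour gives log2 of the CPM in each of the 16 libraries (columns) over the mean CPM of the own control group, for the 32 genes (rows) grouped by role and ordered by the knockdown response. The siXBP1 columns are blue for 7 of 8 fatty acid enzymes and red for SC5D, SQLE and HSD17B7, while the MKC8866 columns are paler and differ among libraries.

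Of the 6 genes that control the pathway or carry sterols, 1 fell, 2 rose and 3 were not called on knockdown. Over all genes tested, 18.2% were called lower and 16.5% higher. SREBF1, which encodes the SREBP with most effect on fatty acid genes, was at 606 ± 50.7 and 611 ± 22.3 CPM (SD, n = 4) with overlapping libraries (log2 fold change 0.01 ± 0.05, edgeR adjusted p = 0.919). SREBF2, which encodes the SREBP with most effect on sterol genes, went from 510.1 ± 25.4 to 551 ± 20.8 CPM and passed narrowly (log2 fold change 0.11 ± 0.04, edgeR adjusted p = 0.0439). The escort gene SCAP went from 159.6 ± 8.03 to 175 ± 5.92 CPM (log2 fold change 0.13 ± 0.04, edgeR adjusted p = 0.0218). In both SREBF2 and SCAP the groups overlapped. INSIG1, a retention factor that is itself an SREBP target, fell from 269 ± 5.92 to 234 ± 13.1 CPM with no overlap (log2 fold change -0.21 ± 0.04, edgeR adjusted p = 0.000415). Its relative INSIG2 was at 25.5 ± 2.36 and 27.2 ± 1.92 CPM and STARD4, a carrier of cholesterol between membranes, at 153 ± 4.61 and 155 ± 7.47 CPM, and neither was called. The median log2 fold change of these 6 genes was 0.05.

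Without siCtrl replicate 4, the library with the low mitochondrial share, 15 of the 32 genes were called lower and 3 higher on knockdown, and HMGCS1, NSDHL, SCAP and SREBF2 were no longer called. SCAP and SREBF2 also lost their calls without siCtrl replicate 1 or siXBP1 replicate 4, SREBF2 and HMGCS1 without siXBP1 replicate 1. The other 18 called genes passed whichever library was left out.

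With MKC8866, HSD17B7 fell, and 31 of the 32 genes were not called by the edgeR quasi-likelihood test without a replicate block. This does not show that they were unchanged. Among all 21045 genes tested, 3.11% were called lower and 1.36% higher. The median log2 fold change of the 32 genes was -0.0085, beside 0.0027 for all genes tested. At an unadjusted p under 0.05 there were 5 lower and 3 higher genes among the 32, and DESeq2 called 3 lower and none higher. With the replicate number as a block in edgeR, 10 of the 32 were called. The 5 lower were HSD17B7, FDPS, NSDHL, EBP and INSIG2, and the 5 higher were SCAP, SREBF1, SREBF2, FASN and ACLY. Across all genes the block gave 1484 lower and 1262 higher. The main fits have no block, since the numbers were not taken to pair the libraries. The count of calls with MKC8866 depends on this choice. With the block the spread between replicates estimated by edgeR was 2.68%, beside 4.97% without it. On knockdown it was 5.27% with the block and 5.40% without it. HSD17B7 was at 52.4, 51.8, 49.2 and 48.0 CPM with Vehicle and at 44.0, 46.1, 44.7 and 40.9 CPM with MKC8866. All MKC8866 libraries were below all Vehicle libraries, the log2 fold change was -0.20 ± 0.05 (edgeR adjusted p = 0.0241), and the call was lost when any of Vehicle replicate 1, Vehicle replicate 2, MKC8866 replicate 3 or MKC8866 replicate 4 was left out. NSDHL was the other gene among the 32 whose MKC8866 libraries were all below the Vehicle libraries, where 5.15% of all genes tested lay entirely below and 4.03% entirely above. Its values were 88.7 ± 2.72 and 81.0 ± 1.57 CPM (SD, n = 4, log2 fold change -0.13 ± 0.04, edgeR adjusted p = 0.0735).

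None of the 8 fatty acid enzymes was called with MKC8866 without the block (1 at an unadjusted p under 0.05, none by DESeq2). Their median log2 fold change was 0.03. FASN was at 2220.2, 1849, 2163 and 2039.7 CPM with Vehicle and at 2375, 2003, 2361 and 2410.1 CPM with MKC8866 (log2 fold change 0.14 ± 0.05, edgeR adjusted p = 0.152). MKC8866 replicate 2 lay within the Vehicle range and the other treated libraries above it, and replicate 2 was the lowest in each group. Each MKC8866 library was above the Vehicle library of the same number. The replicate block in edgeR called FASN (adjusted p = 7.38e-07) and ACLY (adjusted p = 0.0175) higher, and no other of the 8. ACLY was at 732, 654, 740.2 and 699 CPM with Vehicle and at 747, 672, 772 and 791 CPM with MKC8866, again with replicate 2 the lowest in each group (log2 fold change 0.08 ± 0.05). ACACA was at 713, 697, 719.8 and 712 CPM with Vehicle and at 714, 711, 723 and 767 CPM with MKC8866 (log2 fold change 0.03 ± 0.03). For the others, the log2 fold changes with their 95% confidence intervals were 0.03 (-0.04 to 0.10) for SCD, -0.01 (-0.13 to 0.11) for ELOVL6, -0.05 (-0.13 to 0.02) for FADS1, 0.04 (-0.06 to 0.14) for FADS2 and 0.01 (-0.08 to 0.09) for ACSS2. For the 7 enzymes that fell on knockdown, the lowest of the lower ends was that of ELOVL6, at -0.13.

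In the sterol pathway, EBP was at 63.9, 61.3, 63.7 and 58.8 CPM with Vehicle and at 59.0, 56.0, 59.8 and 55.1 CPM with MKC8866, with overlap and without a call (log2 fold change -0.11 ± 0.05, edgeR adjusted p = 0.266). FDPS had a log2 fold change of -0.13 ± 0.04 (edgeR adjusted p = 0.0793) and DESeq2 called it, with NSDHL, lower. The other 14 sterol enzymes ran from -0.07 for PMVK to 0.04 for DHCR7 in log2 fold change, and none of them was called by either tool. Of the 6 regulators, none was called without the block (3 at an unadjusted p under 0.05, none by DESeq2). INSIG2 had the lowest log2 fold change of the 6, -0.19 ± 0.07 (edgeR adjusted p = 0.137), and SREBF1 the highest, 0.13 ± 0.05 (edgeR adjusted p = 0.246). Without MKC8866 replicate 2, 5 of the 32 genes were called, NSDHL, INSIG2 and HSD17B7 lower and FASN and SREBF1 higher.

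The responses to the 2 treatments were compared by an interaction term fitted over the 16 libraries. Treatment and experiment cannot be told apart in it. Of the 32 genes, 16 differed at an edgeR adjusted p under 0.05, 13 with a more negative response to knockdown and 3 with a more positive one. Among all 20357 genes tested, 12.7% had a more negative and 10.6% a more positive response to knockdown. All 7 fatty acid enzymes that fell on knockdown were among the 13, the difference being largest for FASN (log2 difference -0.59 ± 0.08, edgeR adjusted p = 1.38e-06) and ACLY (-0.39 ± 0.06, edgeR adjusted p = 2.37e-05). From the sterol pathway they included MVD, FDFT1, LSS, EBP and DHCR7, and from the regulators INSIG1 (-0.21 ± 0.06, edgeR adjusted p = 0.00755). HSD17B7 differed in the other direction, having been called higher in one experiment and lower in the other (0.36 ± 0.07, edgeR adjusted p = 0.000196). SC5D (0.24 ± 0.06, edgeR adjusted p = 0.00266) and INSIG2 (0.28 ± 0.10, edgeR adjusted p = 0.0443) were the other two. FDFT1, LSS and INSIG2 lost this call when single libraries were left out, each in at least 5 of 16 such fits.

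The level of each gene was compared per length, as CPM per kilobase of exon. The length counts every annotated exon base of a gene and not the transcript expressed, so comparisons between genes are rough. SCD and FASN stood highest in siCtrl cells, at 281 ± 5.41 and 251 ± 21.4 CPM per kb (SD, n = 4), and their libraries overlapped. In siXBP1 cells SCD was at 246 ± 5.48 and FASN at 184 ± 6.74 CPM per kb, no longer overlapping. ACLY came next in siCtrl cells (149 ± 6.42), then the sterol enzymes FDFT1 (119.6 ± 2.61) and HMGCS1 (108 ± 5.03). At the low end were HSD17B7 (11.3 ± 0.433), CYP51A1 (6.46 ± 0.635), INSIG2 (6.45 ± 0.597) and ELOVL6 (6.05 ± 0.180 CPM per kb), the last 3 of which overlapped. Of the 31 pairs of neighbours in this order, 19 had overlapping libraries in siCtrl cells and 17 in Vehicle cells. Most neighbours were thus not separated by their ranges, and their order within single libraries was not compared. INSIG1 stood at 73.8 ± 1.62 CPM per kb and INSIG2 far below it, and SREBF1 and SREBF2 were at 75.4 ± 6.31 and 67.5 ± 3.36 CPM per kb.

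**Figure D4:**
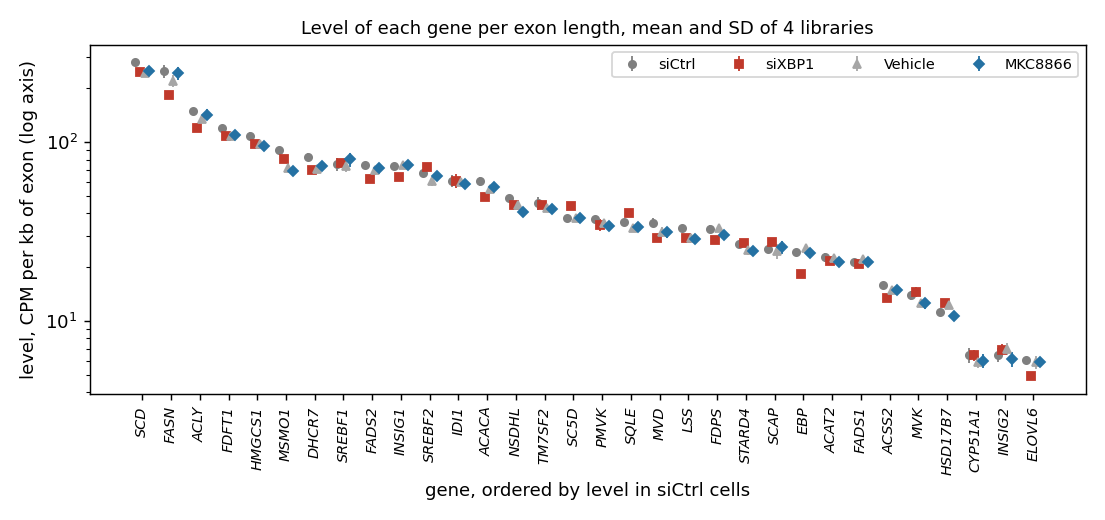
Level of the 32 genes in CPM per kilobase of exon on a log axis, as mean and SD of 4 libraries in each of the 4 groups, ordered by the siCtrl level. SCD and FASN lead in every group and ELOVL6, INSIG2 and CYP51A1 are lowest.

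Some of these levels are understated, since fragments that overlapped 2 genes were left uncounted. Exons of other genes, some of them antisense, cover 82.2% of the exon bases of CYP51A1 and 52.3% of those of ACAT2. For FDPS, IDI1 and HMGCS1 the share is 18.6%, 17.9% and 15%. HSD17B7 has pseudogene copies elsewhere in the genome, and fragments that matched several places were not counted. The values of these genes, responses included, are therefore less certain than those of the others.

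Lists of related genes were described in the same way. The background for their counts, and for the marker counts further below, is the share of all genes tested that passed. On knockdown 18.2% fell and 16.5% rose, and under the inhibitor 3.11% fell and 1.36% rose. Whether any list held more calls than this background was not tested. Of 12 genes of sterol sensing and SREBP processing, 5 fell and 1 rose on knockdown (edgeR adjusted p under 0.05), with a median log2 fold change of -0.09. NPC1, which exports cholesterol from lysosomes, went from 287 ± 3.72 to 154 ± 3.30 CPM (log2 fold change -0.90 ± 0.04, edgeR adjusted p = 1.27e-14). ERLIN2, an ER membrane protein, fell by 32.3%, and OSBP, an oxysterol-binding protein, fell by 29.8%. With MKC8866, OSBP fell (log2 fold change -0.29 ± 0.04, edgeR adjusted p = 2.96e-06) and NPC1 rose slightly (0.13 ± 0.04, edgeR adjusted p = 0.0458).

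Of 12 genes of the isoprenoid and ubiquinone branch, which draws on FDPS products, 4 fell and 1 rose on knockdown. The shares over all genes tested were 18.2% and 16.5%. DHDDS and NUS1, the subunits of the enzyme that makes dolichol for protein glycosylation, fell in both experiments. The log2 fold change of DHDDS was -0.52 ± 0.05 on knockdown and -0.21 ± 0.06 with MKC8866 (edgeR adjusted p = 3.97e-08 and 0.0249). That of NUS1 was -0.30 ± 0.04 and -0.26 ± 0.05 (edgeR adjusted p = 8.44e-06 and 0.00104). RCE1, a protease of prenylated proteins, rose on knockdown (log2 fold change 0.22 ± 0.06). With MKC8866, the 2 genes of dolichol synthesis were the only ones of the 12 called.

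Other enzymes and factors of fatty acid synthesis and elongation, 21 genes in all, were called higher in 9 and lower in 4 cases on knockdown, with a median log2 fold change of 0.11. ELOVL1, an elongase of long saturated chains, fell (log2 fold change -0.38 ± 0.04, edgeR adjusted p = 3.5e-08), as did the transcription factor gene MLX (-0.31 ± 0.04, edgeR adjusted p = 1.83e-06). HACD1, a dehydratase of chain elongation, rose from 0.907 ± 0.167 to 2.16 ± 0.223 CPM, a low level (log2 fold change 1.24 ± 0.18, edgeR adjusted p = 8.66e-06). With MKC8866, SLC25A1, the mitochondrial citrate carrier that feeds ACLY, was the 1 gene of this list called, and it rose (log2 fold change 0.26 ± 0.06, edgeR adjusted p = 0.012).

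Of 10 genes of sterol efflux and the liver X receptors, which sense oxysterols, 7 were tested, and 3 fell and 3 rose on knockdown. SOAT1, which esterifies cholesterol for storage, fell (log2 fold change -0.53 ± 0.05, edgeR adjusted p = 4.85e-09). ABCG1, a sterol exporter, rose (0.42 ± 0.08, edgeR adjusted p = 0.000291), and so did MYLIP, a ubiquitin ligase induced by these receptors (0.37 ± 0.06, edgeR adjusted p = 2.29e-05). None of the 7 was called with MKC8866 by edgeR, with 1 at an unadjusted p under 0.05 and 1 called by DESeq2.

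Luminal markers of the prostate also changed in both experiments. On knockdown 4 of 7 luminal markers fell (5 at an unadjusted p under 0.05, 4 by DESeq2), and none rose by any of these criteria. Their summed level was 3865 to 4096 CPM in siCtrl libraries and 2984 to 3071 CPM in siXBP1 libraries. The log2 fold change was -0.89 for TMPRSS2, -0.86 for KLK3 and -0.87 for STEAP2. With MKC8866 the sum was 4326 to 4472 CPM, beside 3941 to 4027 CPM with Vehicle, and KLK3 alone of the 7 was called and rose (log2 fold change 0.46 ± 0.04, edgeR adjusted p = 2.75e-08). Both KLK3 and TMPRSS2 are known targets of the androgen receptor. Of 12 markers of other cell types, 8 were tested and the fibroblast gene COL3A1 alone was called, higher on knockdown at 2.05 ± 0.214 and 4.40 ± 0.666 CPM. Their sum was 37.9 to 45.4 CPM in siCtrl, 44.9 to 49.4 in siXBP1, 38.79 to 49.96 in Vehicle and 38.7 to 45.2 CPM in MKC8866 libraries. The part of either list in the changes of the lipid genes was not tested.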

How the data were processed

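RNA from 16 LNCaP libraries in 4 groups was sequenced by the authors from TruSeq stranded libraries. Per the labels and the file headers, the authors used STAR 2.5.2a for alignment to GRCh38 and deposited raw counts of fragments per Ensembl gene from featureCounts 1.5.0. Counting ignored strand and left out fragments that matched several places or overlapped 2 genes.

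Treated and control libraries of an experiment were compared in a model of their own with edgeR 4.0.16 in R 4.3.3, by the two-sided quasi-likelihood F test after TMM normalization. As in the authors' filter, both groups had to hold a library with over 5 counts for a gene to be tested. Calls were made where the adjusted p (Benjamini-Hochberg, all genes tested) was under 0.05. The SE is the log2 fold change divided by the square root of F. Adjusted p-values in the text come from edgeR unless DESeq2 1.42.0 is named. CPM used TMM-scaled library sizes over all 16 libraries, and levels per kilobase used the exon length in the deposited table. Depth was 28713607 to 34509488 fragments. For the least counted of the 32 genes, such as INSIG2, counting error adds to the spread between replicates. The labels do not say whether replicates were separate cultures, so p-values may measure technical spread. No 2 libraries had identical counts.

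The 32 genes, the related lists and the markers were chosen with earlier results of these data known. All 32 genes are named. Every library is printed for genes called with a log2 fold change of at least 0.3 in size, or called in opposite directions. A further luminal marker is not reported here. From each related list at most the 3 called genes with the lowest adjusted p in a comparison are named. Alternatives were DESeq2, its size factors in edgeR, leaving low counts unfiltered, a minimum of 10 counts in all libraries, one fit for all 16 libraries, a replicate block, and the removal of single libraries. The fits were tested on simulated data. Sequences and start sites are from RefSeq (GRCh38.p14). Tables were handled with Python 3.11.15, pandas 2.3.3 and scipy 1.17.1, and figures drawn with matplotlib 3.10.9.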

Additional observations from a re-analysis of the deposited data

Results flagged for a closer look

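In 3 of the 128 sets of 4 libraries (32 genes in 4 groups), 1 library stood far from the others by Dixon's test, where chance gives about 1 in 20 sets. FDPS was at 116.9 CPM in MKC8866 replicate 4 and between 110.4 and 110.8 CPM in the other libraries of that group. FASN was at 2003 CPM in MKC8866 replicate 2, where the others lay between 2361 and 2410 CPM. SCD was at 1271 CPM in the same library, MKC8866 replicate 2, and between 1351 and 1366 CPM in the others. Vehicle replicate 2 was also the lowest of its group for both genes, at 1849 CPM for FASN and 1280 CPM for SCD.

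The response to knockdown differed from that to MKC8866 in 16 of the 32 genes by the interaction test in edgeR, and the values are given as the log2 response to knockdown minus that to MKC8866. Among the fatty acid enzymes the difference was -0.59 for FASN, -0.39 for ACLY, -0.33 for ACACA, -0.30 for FADS2, -0.29 for ELOVL6, -0.25 for ACSS2 and -0.23 for SCD. In the sterol pathway it was -0.31 for EBP, -0.30 for DHCR7, -0.27 for MVD, and -0.16 for both FDFT1 and LSS. It was -0.21 for INSIG1. A positive difference was found for HSD17B7 (0.36), INSIG2 (0.28) and SC5D (0.24). The adjusted p of INSIG2 was the highest of the 16, at 0.0443, and that of FASN the lowest, at 1.38e-06.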

How the results depend on the processing

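On knockdown, DESeq2, its size factors in edgeR and both other filters gave the same counts of 17 lower and 5 higher genes. In one fit of all 16 libraries 3 were higher, since SCAP and SREBF2 were no longer called. Leaving out single libraries gave 18 to 22 called genes, 15 to 17 lower and 3 to 5 higher, and a median log2 fold change of -0.14 to -0.11. With MKC8866, where 1 gene was called, DESeq2 called 3, all 3 lower (FDPS and NSDHL added). Without a filter 3 were called, 2 of them higher (FASN and SREBF1). With at least 10 counts in every library, and also in one fit of all 16 libraries, 2 were called, both of the 2 lower (NSDHL added). Leaving out single libraries gave 0 to 5 called genes, 0 to 3 lower and 0 to 2 higher. The cause of these shifts was not tested. HSD17B7 had an adjusted p = 0.0241 in the main edgeR fit. In the edgeR fit with a replicate block, described below, the adjusted p of the called genes ran from 7.38e-07 for FASN to 0.0251 for SCAP. The differences between responses numbered 13 to 17 when single libraries were left out, and SQLE (adjusted p = 0.0502) passed in some fits. No gene called in both a main and an alternative fit changed direction.

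The labels give the same replicate numbers to treated and control libraries. Deviations from the group mean of same-numbered libraries correlated at 0.19, 0.33, 0.08 and 0.19 in the inhibitor experiment and at 0.05, 0.01, 0.04 and 0.06 in the knockdown experiment, so the numbers were not taken to pair the libraries. Vehicle replicate 3 correlated best with MKC8866 replicate 1, so not every library correlated best with its own number. Pairs with unlike numbers in the inhibitor experiment ran from -0.22 to 0.13. Under MKC8866 the replicate block gave 10 calls among the 32 genes, 5 lower (HSD17B7, FDPS, NSDHL, EBP and INSIG2) and 5 higher (SCAP, SREBF1, SREBF2, FASN and ACLY), and across all genes 1484 were lower and 1262 higher, against 654 and 287 without it. On knockdown the block gave 17 lower and 4 higher genes, SREBF2 having an adjusted p = 0.0612.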
